A study of Caenorhabditis elegans with 34 samples.

Results

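The comparison of sorted intestine cells of third-stage larvae (L3) with sorted intestine cells of embryos was described here in Caenorhabditis elegans. Its members are 6 of the 30 libraries with columns in the count table, chosen by their titles: 3 libraries of L3 GFP-positive cells and 3 of embryo GFP-positive cells. The labels list 34 libraries in all, of which 4 (replicate 2 of L1) are not analysed here. All libraries came from strain JM149, which carries caIs71, a transgene in which elt-2p drives GFP::HIS-2B, a green fluorescent histone, ahead of the unc-54 3'UTR, together with the marker rol-6(su1006). Each member library was made from 300000 sorted GFP-positive cells. The L3 cells were released by 2 min in SDS-DTT, 30 min in pronase E and 100 strokes of a dounce pestle, and the embryo cells by 20 min in chitinase, 5 min in pronase E and 100 strokes through a syringe needle. The design text calls the embryos mixed, and no age in hours is given for either stage. Stage and dissociation protocol therefore changed together, and their effects cannot be told apart in sorted cells. L3 and embryo GFP-negative cells (1000000 cells per library, 3 libraries each), L3 and embryo whole animals that were not dissociated (3 and 2 libraries) and L1 GFP-positive and GFP-negative cells (2 libraries each) served for comparison.

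The intestine of C. elegans is a single tube of large epithelial cells that digests bacteria, stores fat and takes part in immune and stress responses. It descends from 1 founder cell of the early embryo, and GATA factors specify and then maintain it, with ELT-2 present from the embryonic intestine through adulthood. Embryos live on maternal stores inside the eggshell, while L3 larvae feed.

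The rows of the count table carry no gene identifier, and no file pairs rows with genes, so rows are named by their position in the table and no function is given to any row. The labelled cell type could for the same reason not be checked against elt-2 or other marker genes. The sorted fractions were set beside the L1 sort instead, whose results are given further on. That sort used the same strain and GFP reporter, so it shows whether the sort repeats and cannot establish the cell type. Levels are given as CPM, counts per 1000000 counts of the library, without correction for transcript length. Folds are compared between libraries within a row. Where rows are ranked or banded by CPM, this goes by counts and not by transcript abundance.

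Library totals were 19854316, 13057174 and 10994387 counts in L3 GFP-positive replicates 1 to 3, against 34582879, 43019701 and 29377214 in embryo GFP-positive replicates 1 to 3. The L3 libraries were shallower, and a count of 0 in the shallowest allows a level of up to 0.273 CPM (3 counts, counting error only). Nevertheless more rows reached 1 CPM in L3 cells, with 12842 ± 266 rows (SD, n = 3), than in embryo cells, with 11110 ± 514 rows (SD, n = 3). The 3 L3 libraries, from 12650 to 13146 rows, all lay above the embryo libraries, from 10670 to 11675 rows, with p = 0.1 in a two-sided exact permutation test, the smallest p that 3 against 3 allows. Across rows, log2 CPM correlated at 0.92 to 0.94 between L3 replicates and at 0.93 to 0.96 between embryo replicates, but only at 0.66 to 0.72 between an L3 and an embryo library. The labels call the libraries biological replicates. No library was a copy of another, the closest pair being L3 replicates 2 and 3 with a chi-square of 77.7 over its degrees of freedom, and each was counted once.

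One embryo GFP-positive library stood apart from the others of its group. Row 10212, singled out by its share of the counts, took 14.5% of all counts in the first embryo GFP-positive replicate, against 1.58% and 1.05% in replicates 2 and 3. Unsorted embryo cells of replicate 1 were also high, at 5.35% against 0.746% in replicate 2. Embryo GFP-negative cells had 0.804%, 1.05% and 0.123% in replicates 1 to 3. In L3 GFP-positive cells the row held 0.565%, 0.501% and 0.970% of the counts. Every L3 GFP-positive library was below every embryo GFP-positive library, and the fitted log2 fold change was -3.41 ± 0.92 (SE, adjusted p = 0.00303 by edgeR's quasi-likelihood test). Without embryo GFP-positive replicate 1 it was -0.93 and the call was lost, with an adjusted p of 0.287.

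The main question was how the transcripts of intestine cells differ between L3 and embryo. In L3 GFP-positive cells 5137 rows were higher and 4956 lower than in embryo GFP-positive cells, which were 30.7% and 29.6% of the 16758 rows tested, 60.2% in all (edgeR quasi-likelihood test, adjusted p under 0.05). The higher rows changed by more, with a median log2 fold change of 3.42, than the lower rows, with a median of -1.76. By fitted folds, 4044 (78.7%) of the higher rows rose at least 4-fold and 973 (18.9%) at least 64-fold, while 2134 (43.1%) of the lower rows fell at least 4-fold and 493 (9.95%) at least 64-fold. Fitted folds depend on the prior count where the other group has no count, as in 410 of the higher and 317 of the lower rows. With those rows at the bound that 3 counts over the group allow, the medians were 3.39 and -1.75, 4043 and 2110 rows passed 4-fold, and 772 and 236 passed 64-fold. The libraries of the groups did not overlap in 9747 of all rows tested (58.2%), of which 8544 were called, 4677 as higher and 3867 as lower. Over all rows tested the median log2 fold change was -0.01 under TMM scaling and 0.30 with scaling by library totals, and folds are to be read against that shift. The near-even balance of calls depends on the scaling: library totals gave 5850 higher and 3920 lower rows, and TMM without row 10212 gave 5785 and 4071.

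**Figure D1:**
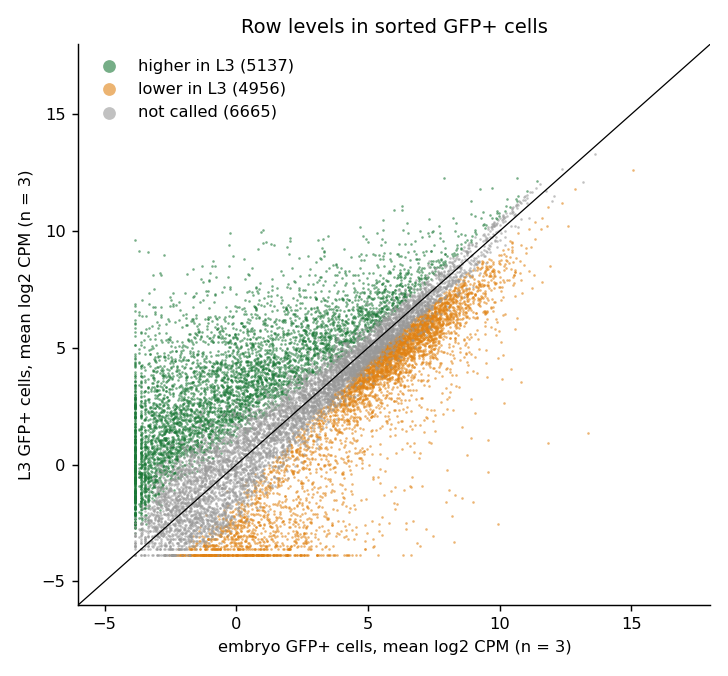
Mean log2 CPM of each tested row in L3 GFP-positive cells (vertical axis) against embryo GFP-positive cells (horizontal axis), n = 3 libraries each; the line marks equal levels. The 5137 higher rows spread widely above the line, many from the floor of the embryo axis, while most of the 4956 lower rows form a band close below it at middle to high levels.

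The direction of change varied with level. Among the 4926 rows with a mean of 1 to 10 CPM over the 6 libraries, 41.8% were higher and 18.6% lower in L3. Among the 1973 rows of 100 to 1000 CPM the order was turned, with 22.6% higher and 47.4% lower. In the 117 rows above 1000 CPM the shares were 24.8% higher and 22.2% lower. The 6275 rows of 10 to 100 CPM had 29.0% higher and 38.1% lower, and the 3467 rows under 1 CPM 22.7% and 19.8%. The bands were cut on the mean of the compared libraries, so these shares are a description.

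The rows with the highest CPM were partly the same. Of the 100 rows with the highest mean CPM in L3 GFP-positive cells, 50 were also among the 100 highest in embryo GFP-positive cells. The L3 list held 23.3%, 22.9% and 25.1% of the counts of the L3 libraries, against 29.0%, 15.4% and 16.2% of the embryo libraries, where the first value is that of replicate 1 with row 10212. The embryo list held 16.5%, 16.8% and 18.3% of the L3 counts, against 35.4%, 20.8% and 21.8% of the embryo counts. These lists were chosen by the values compared, so their shares are a description.

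Among rows whose L3 and embryo GFP-positive libraries did not overlap and whose mean reached 10 CPM, row 14689 had the highest fold. It had 414, 2404 and 530 CPM in the L3 replicates, against 0 counts in every embryo GFP-positive library. All L3 libraries were high, with replicate 2 the highest. With a floor of 3 counts over the group, its level was at least 36910-fold higher in L3 (adjusted p = 1.35e-07 by edgeR). The same row had 548, 276 and 242 CPM in L3 GFP-negative cells, against 2 counts in all embryo GFP-negative libraries together, and 2095 to 3156 CPM in L3 whole animals, against 0 counts in embryo whole animals.

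Row 2440 was next, with 248, 1529 and 519 CPM in the L3 replicates, against 1 count in the 3 embryo libraries together. Its ratio over the summed counts was 74562, with a 95% counting interval from 13381 to 2945118 (adjusted p = 5.12e-09 by edgeR). It too was high in L3 GFP-negative cells, at 429, 181 and 181 CPM, against at most 0.247 CPM in embryo GFP-negative cells. In L3 whole animals row 2440 had 1711 to 2871 CPM, above every L3 GFP-positive library, against 0.543 and 0.244 CPM in embryo whole animals. In L1 GFP-positive cells, which were not in the comparison that chose these rows, row 2440 had 0.254 and 0.218 CPM and row 14689 had 0 and 0.163 CPM. The high level of these rows was thus seen in L3 and not in the L1 GFP-positive libraries. L1 GFP-negative cells had 0.783 and 10.9 CPM for row 2440 and 0.293 and 11.1 CPM for row 14689. Both rows were called lower in L1 GFP-positive than in L1 GFP-negative cells. The log2 fold changes were -4.33 for row 2440 (adjusted p = 0.0022 by edgeR) and -6.41 for row 14689 (adjusted p = 0.0043 by edgeR).

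Of the lower rows, row 9926 had 0 counts in every L3 GFP-positive library, against 43.0, 114 and 116 CPM in the embryo replicates. It was at least 1336-fold lower in L3 (floor of 3 counts over the group, adjusted p = 6.80e-09 by edgeR). Row 14101 likewise had 0 counts in every L3 library, against 24.8, 97.8 and 129 CPM in the embryo replicates, and was at least 1210-fold lower (adjusted p = 1.06e-07). Embryo replicate 1 was the lowest of its group for both rows. In GFP-negative cells row 9926 had 0.0754, 0 and 0 CPM in L3, against 182, 156 and 196 CPM in embryo, and row 14101 had 0.113, 0 and 0 CPM, against 146, 221 and 333 CPM. For these 4 rows the stage change was therefore present in GFP-negative cells as well, and its difference from that in GFP-positive cells did not pass the test (adjusted p from 0.147 to 0.618 by edgeR).

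**Figure D2:**
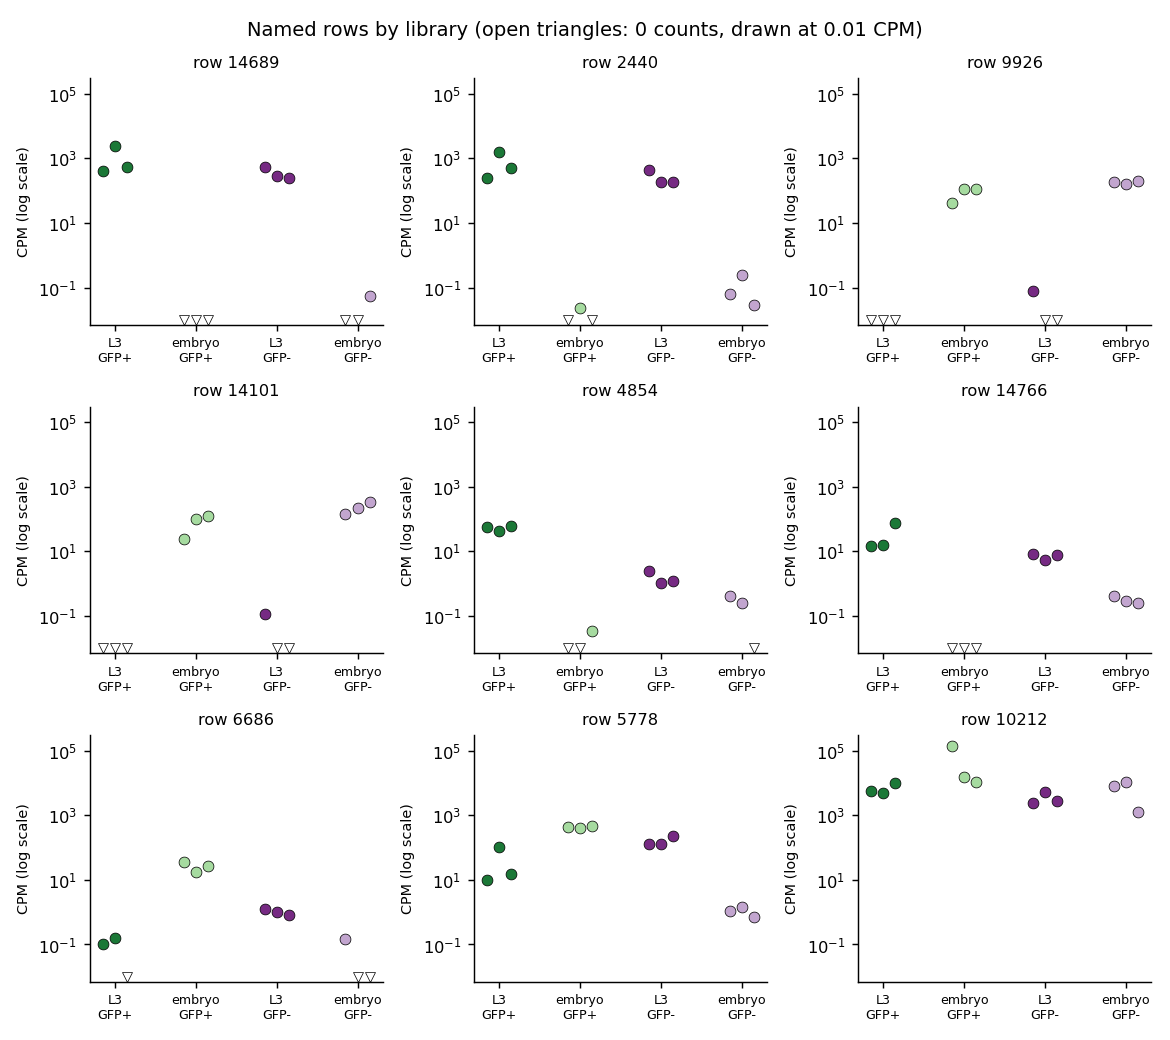
CPM of the 9 named rows in each library of L3 and embryo GFP-positive and GFP-negative cells (log axis; points are replicates 1 to 3 from left to right; open triangles are libraries with 0 counts, drawn at 0.01 CPM). In the first 4 panels L3 and embryo are separated in both fractions, whereas rows 6686 and 5778 fell in L3 GFP-positive cells and were higher in L3 than in embryo GFP-negative cells.

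Few rows went from one end of the level range to the other. In 276 rows every L3 GFP-positive library reached 10 CPM while every embryo GFP-positive library stayed under 1 CPM, and 22 of them had no count in any embryo GFP-positive library. In the reverse class were 48 rows, of which 5 had no count in any L3 GFP-positive library. These classes were chosen by the compared values, and other libraries show how far they reached. The 276 rows had median levels of 36.4, 39.9 and 33.4 CPM in the L3 replicates, against 0, 0.302 and 0.102 CPM in the embryo replicates, and together held 1.81%, 2.59% and 2.16% of the L3 counts. In whole animals 265 of the 276 were called higher in L3, and none lower, where 26.1% of all rows were higher. In GFP-negative cells 259 were higher and 2 lower, against 28.3% higher among all rows, yet only 150 of the 276 reached 10 CPM in every L3 GFP-negative library and 11 stayed under 1 CPM in all of them.

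The 48 rows had median levels of 0.201, 0.115 and 0.0910 CPM in the L3 replicates, against 29.6, 65.5 and 64.3 CPM in the embryo replicates. Of these, 47 were lower in L3 whole animals than in embryo whole animals, where 28.7% of all rows were lower. In embryo GFP-negative cells 34 of them reached 10 CPM in every library, and 4 stayed under 1 CPM. In GFP-negative cells 43 of the 48 were lower in L3 and 1 was higher, against 28.9% lower among all rows. Most of the 48 rows thus also reached 10 CPM in embryo GFP-negative cells.

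L1 larvae lie between embryo and L3 in age, had the dissociation protocol of L3, and were not in the comparison that called the rows. The L1 libraries were in the shared fit of all 30 libraries, which set the scaling and the spread. Each L1 GFP-positive library was placed on the axis from the embryo mean (0) to the L3 mean (1) of log2 CPM over all tested rows. L1 replicate 1 was at 0.608 and replicate 3 at 0.676, while embryo libraries ran from -0.056 to 0.072 and L3 libraries from 0.994 to 1.01. Over the higher rows alone the L1 positions were 0.557 and 0.632, and over the lower rows 0.733 and 0.765. In both L1 libraries the position was thus nearer L3 over the lower rows than over the higher rows. Counted by row the contrast was not seen, as the L1 mean was nearer L3 than embryo in 60.9% of the higher and 60.0% of the lower rows. Per the labels, the sequencer was a HiSeq X-ten for L1 replicate 1 and a NovaSeq for every other library used here.

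Among the higher rows the GFP-positive cells of embryo had a median log2 CPM of -0.45, those of L1 one of 2.04 and those of L3 one of 3.51. Of these 5137 rows, 2814 (54.8%) had an L1 mean between the others, 1620 (31.5%) were in L1 at or above their L3 mean, and 703 (13.7%) were at or below their embryo mean. Among the lower rows the embryo median was 5.47, that of L1 4.41 and that of L3 3.87. Of these 4956 rows, 3296 (66.5%) had an L1 mean between the others, 1071 (21.6%) were in L1 at or below their L3 mean, and 589 (11.9%) were at or above their embryo mean. In the class of 276 rows, 79 reached 10 CPM in both L1 libraries and 49 were under 1 CPM in both. In the class of 48 rows, none reached 10 CPM in both L1 libraries and 32 were under 1 CPM in both.

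**Figure D3:**
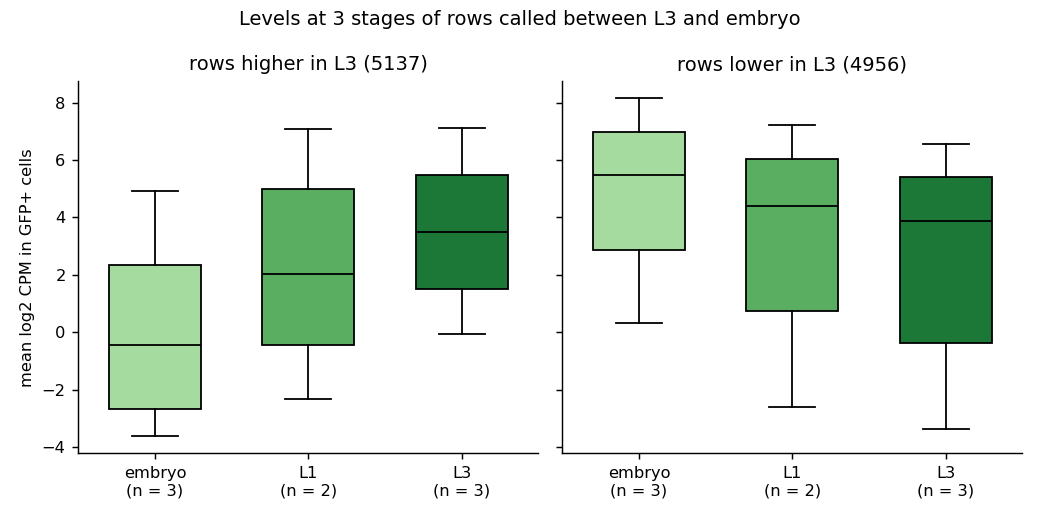
Mean log2 CPM in GFP-positive cells of embryo, L1 and L3 for the 5137 rows higher in L3 (left) and the 4956 rows lower in L3 (right); boxes span the quartiles with the median as a line, and whiskers reach the outer deciles over rows. The L1 medians of 2.04 and 4.41 lie between those of embryo and L3 in both panels. The rows were called by comparing embryo with L3, in a fit of all 30 libraries that included L1.

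The L1 sort gave lists of rows enriched and depleted in GFP-positive cells that share no library with the comparison. They are called intestine-enriched and intestine-depleted here after the label of the sort. In L1, 3219 rows were higher in GFP-positive cells (19.2% of rows tested) and 2281 were lower (13.6%), 32.8% in all, with GFP-negative cells as the reference. Of the class of 276 rows described above, 118 were lower and 55 higher in the L1 sort, so more were intestine-depleted than intestine-enriched. Of the class of 48 rows, 3 were lower and 6 higher. The rows higher in the L1 sort held 24.9%, 25.6% and 25.7% of the counts in L3 GFP-positive replicates, against 24.7%, 25.4% and 28.3% in embryo GFP-positive replicates. The groups overlapped (mean 25.4 ± 0.44% in L3 and 26.2 ± 1.9% in embryo, SD, n = 3 each, two-sided exact permutation p = 0.9). In GFP-negative cells the same rows held 9.33 ± 0.47% in L3 and 14.8 ± 0.36% in embryo (SD, n = 3 each, exact permutation p = 0.1, the smallest possible). In both stages every GFP-positive library was above every GFP-negative library for these rows.

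The intestine-enriched rows moved in both directions between the stages. Of the 3219, 891 (27.7%) were higher and 992 (30.8%) lower in L3 than in embryo GFP-positive cells, shares near the 30.7% and 29.6% of all rows. Their median log2 fold change was -0.05 under TMM, 0.11 under RLE scaling and 0.30 with library totals, so its sign follows the scaling, and the median of all rows was -0.01, 0.16 and 0.30 under the same scalings. With single libraries left out it ran from -0.15 to 0.35. The quartiles were -1.18 and 1.41. The count of 992 fell to 549 when L1 GFP-positive replicate 1 was left out, to 550 or 626 when L1 GFP-negative replicate 3 or 1 was, and to 633 when embryo GFP-positive replicate 3 was. The L1 libraries also set which rows are in the list.

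The rows lower in the L1 sort were mostly higher in L3. Of the 2281, 1360 (59.6%) were higher and 311 (13.6%) lower in L3 than in embryo GFP-positive cells, against 30.7% and 29.6% of all rows, and the median of their log2 fold changes was 2.09. It was 2.11 under RLE scaling, 2.29 with library totals and 2.09 with the 129 rows that lack counts in 1 of the groups at their bound. The count of 1360 was 793 and that of 311 was 193 without L1 GFP-positive replicate 1, which also shortens the list. Their share of counts was 15.8%, 13.6% and 15.4% in the L3 GFP-positive replicates, against 8.81%, 11.6% and 10.3% in the embryo replicates, and no L3 library overlapped an embryo one (exact permutation p = 0.1, the smallest possible). In GFP-negative cells it was 17.8%, 18.6% and 19.9% in L3, against 11.4%, 14.6% and 14.5% in embryo. For these rows the fractions were separate in L3 but overlapped in embryo, where GFP-positive replicate 2 was above GFP-negative replicate 1. Within each replicate number, however, the embryo GFP-positive library was below the GFP-negative one, as was the case in L3. In GFP-negative cells 1054 (46.2%) of the rows were higher and 434 (19%) lower in L3, against 28.3% and 28.9% of all rows. In L1 GFP-positive cells the share was 4.69% and 5.19%, values that chose the list. The part of RNA from other cells in the rise of these rows in L3 GFP-positive cells was not tested. In sorted or whole samples, fewer cells of a type and less RNA per cell cannot be told apart.

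**Figure D4:**
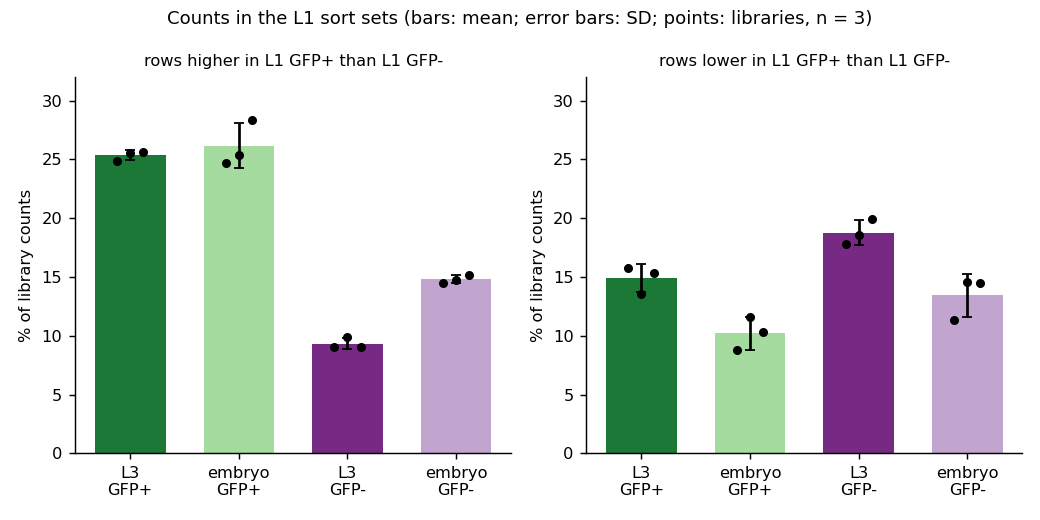
Percent of each library's counts in rows higher (left) and lower (right) in the GFP-positive fraction of L1, for L3 and embryo GFP-positive and GFP-negative libraries; bars are means, error bars SD and points the 3 libraries. The left set holds 25.4% of L3 and 26.2% of embryo GFP-positive counts, while the right set holds 14.9% of L3 and 10.2% of embryo GFP-positive counts.

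Whole animals were not dissociated, so their stage comparison does not carry the change of protocol. Of the 5137 rows higher in L3 GFP-positive cells, 2984 were also higher in L3 whole animals, which is 58.1% of the GFP-positive list and 68.2% of the whole-animal list. Only 63 (1.23%) went the opposite way and 2090 (40.7%) were not called. Of the 4956 lower rows, 3388 were also lower in whole animals, 68.4% of the GFP-positive list and 70.6% of the whole-animal list, and 176 (3.55%) went the opposite way. Across all rows the log2 fold changes correlated at r = 0.79, a description over 16758 rows that share 1 fit and 1 scaling but no library. Whole animals had 4374 rows higher and 4802 lower, 54.8% of all rows tested. Without embryo whole replicate 3 the 4374 became 2797 and the shared 2984 became 1980, which leaves 1 embryo whole library whose spread is assumed to be that of the other groups.

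For the intestine-enriched rows of the L1 sort, the values in whole animals and in GFP-positive cells stand side by side here, and their difference was not tested. In whole animals 1399 (43.5%) of the 3219 were higher and 459 (14.3%) lower in L3, where 26.1% of all rows were higher and 28.7% lower. Their median log2 fold change there was 0.92, against -0.05 in GFP-positive cells, where 891 were higher and 992 lower. All rows had medians of -0.02 in whole animals and -0.01 in GFP-positive cells. Of the 891 enriched rows that were higher in L3 GFP-positive cells, 723 (81.1%) were also higher in whole animals and 4 were lower. Of the 992 that were lower in L3 GFP-positive cells, 360 (36.3%) were also lower in whole animals and 128 were higher. In whole animals these rows held 20.6%, 22.8% and 22.9% of the counts in L3, against 17.1% and 17.2% in embryo, so every L3 whole library was above the embryo ones.

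The stage change in GFP-negative cells was set beside that in GFP-positive cells, since both fractions of a stage had the same dissociation. In GFP-negative cells 57.3% of all rows were called. Of the rows higher in L3 GFP-positive cells, 3151 were also higher in L3 GFP-negative cells, 61.3% of the GFP-positive and 66.4% of the GFP-negative list. Of the lower rows, 3381 were shared, 68.2% and 69.7% of the lists. Opposite calls were made for 111 of the higher and 222 of the lower rows. The difference of the stage changes was then tested directly, as L3 minus embryo in GFP-positive cells minus the same in GFP-negative cells. It was positive in 1857 rows (11.1%) and negative in 1629 (9.72%), 20.8% in all, with a median over all rows of 0.24. GFP-positive and GFP-negative libraries of the same stage and number varied together, and with stage and replicate number as a block in the 12 sorted libraries the counts were 1161 and 1295. Positive differences were 53.3% of the calls under TMM, 47.3% with that block and 71.5% with library totals, so the larger number of positive calls depends on the fit. The positive count was 2876 with DESeq2, 1187 with limma voom and 1017 with the 12 sorted libraries alone.

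The L1 lists share no library with this test, but they come from the same fit and scaling. Of the rows lower in the L1 sort, 430 (18.9%) had a positive difference and 114 (5.00%) a negative one. Of the rows higher in the L1 sort, 418 (13.0%) were positive and 563 (17.5%) negative. Their median differences were 1.06 and -0.02, beside 0.24 for all rows.

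**Figure D5:**
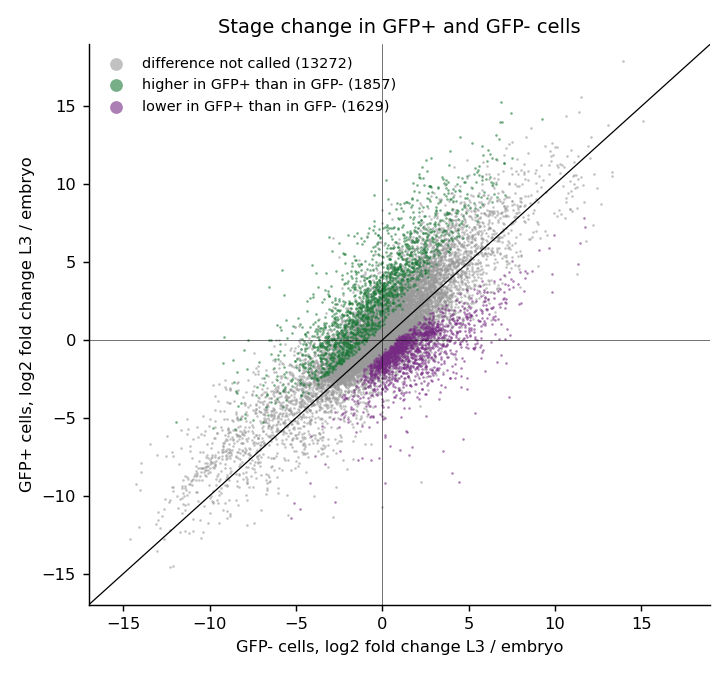
Log2 fold change of L3 over embryo for each tested row in GFP-positive cells (vertical axis) and GFP-negative cells (horizontal axis); the diagonal marks equal change. Most rows lie along the diagonal, and colour marks the 1857 rows with a positive and the 1629 with a negative difference of GFP-positive minus GFP-negative change.

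Row 4854 had 57.0, 43.1 and 60.3 CPM in L3 GFP-positive cells, against 1 count in the 3 embryo GFP-positive libraries together. In GFP-negative cells it had 2.53, 1.03 and 1.19 CPM in L3, against 0.424, 0.247 and 0 CPM in embryo. The L3 signal was thus high in the GFP-positive fraction. The difference of log2 fold changes was 8.87 ± 1.88 (SE, adjusted p = 0.00209 by edgeR, 0.00766 with the block and 0.0530 with limma voom, where the call is lost). The row was also higher in the L1 sort, at 66.0 and 5.72 CPM in L1 GFP-positive cells against 1.88 and 0.479 CPM in L1 GFP-negative cells, with L1 replicate 1 far above replicate 3.

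Row 14766 had 15.1, 15.5 and 74.9 CPM in L3 GFP-positive cells, against 0 counts in every embryo GFP-positive library. In GFP-negative cells it had 8.03, 5.51 and 7.72 CPM in L3, against 0.424, 0.296 and 0.250 CPM in embryo. Both L3 fractions were above their embryo counterparts in every library, and the level in GFP-positive cells was at least 1076-fold higher in L3 (floor of 3 counts over the group). The fitted difference of log2 fold changes, which depends on the prior count, was 8.57 (adjusted p = 0.00285 by edgeR). It was 7.78 with the block (adjusted p = 0.0173 by edgeR) and 5.80 with limma voom (adjusted p = 0.0480). In the L1 sort it was lower in GFP-positive cells, at 1.75 and 2.23 CPM against 25 and 20.6 CPM in GFP-negative cells.

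Among negative differences, row 6686 had 0.101, 0.153 and 0 CPM in L3 GFP-positive cells, against 36.9, 18.1 and 26.7 CPM in embryo GFP-positive cells. In GFP-negative cells it had 1.24, 1.03 and 0.810 CPM in L3, against 0.148, 0 and 0 CPM in embryo. Its embryo GFP-positive libraries were thus far above all other sorted libraries of L3 and embryo, and L1 GFP-positive cells had 0.115 and 0 CPM. The ratio of embryo to L3 over the summed counts of GFP-positive cells was 291, with a 95% counting interval from 114 to 1071. The difference of log2 fold changes was -12.60 ± 1.62 (SE, adjusted p = 2.41e-05 by edgeR, 0.00135 with the block).

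Row 5778 had 9.67, 104 and 15.6 CPM in L3 GFP-positive cells, against 440, 418 and 473 CPM in embryo GFP-positive cells. In GFP-negative cells it had 128, 134 and 228 CPM in L3, against 1.10, 1.43 and 0.695 CPM in embryo. Among the sorted libraries the row was thus higher in GFP-positive cells of the embryo and in GFP-negative cells of L3. L3 GFP-positive replicate 2 was well above the other L3 GFP-positive replicates. The difference was -11.03 ± 1.3 (SE, adjusted p = 7.49e-06 by edgeR, 0.00135 with the block). In whole animals its levels were 11.0 to 26.0 CPM in L3 and 30.7 to 42.9 CPM in embryo, and the change did not pass (log2 fold change -0.83 ± 0.82, adjusted p = 0.401). Dissociated, unsorted L3 cells had 223, 71.6 and 98.9 CPM. In L3 these cells and the GFP-negative cells were thus above the whole animals in every library. In L1, which had the dissociation protocol of L3, unsorted cells were below the whole animals of the same replicate. They had 6.08 and 9.57 CPM, against 6.99 and 31.0 CPM in L1 whole animals. L1 GFP-positive cells had 4.13 and 2.12 CPM and L1 GFP-negative cells 2.08 and 28.0 CPM. The part of dissociation in the L3 levels of this row was not tested.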

How the data were processed

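Polyadenylated RNA was sequenced as read pairs of 150 bases, per the labels' protocols. The authors deposited raw counts in 16762 rows. Build ce11 is named in the submitters' processing notes, and so are, with no role or order, SAMtools 1.9, featureCounts 1.6.4, DESeq2 1.28.1, fastp 0.20.0, deepTools 3.2.0 and HISAT2 2.1.0. Row choice, strand and counting options are not given in the sources used here, so reads of overlapping or near-identical genes may be divided in ways not known here. The normalized and rlog tables that came with the counts were not used.

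Tests were run on the counts by edgeR 4.0.16 (R 4.3.3), after filterByExpr with a minimum count of 10 (16758 rows kept), TMM scaling, 1 mean per stage and fraction in all 30 libraries (18 residual degrees of freedom), two-sided quasi-likelihood F-tests, and Benjamini-Hochberg adjustment over all rows, called under 0.05. This covers 5 comparisons. Standard errors are those implied by the F statistic. Log2 CPM used a prior count of 2. CPM and shares use library totals. The procedure was run on simulated data with few changed rows and libraries drawn independently. These data have many changed rows and fractions that vary together, so that run does not cover them. Alternatives used limma 3.58.1 (voom) and DESeq2 1.42.0 among others. Totals of the 6 libraries ran from 10994387 to 43019701 counts, and intervals and floors cover counting error only. The edgeR p-values measure the spread between the labelled biological replicates, pooled over all groups of the 30 libraries and not that of the 6 compared libraries alone. With only those 6 in the fit, the rows named for the stage change or largest share had larger adjusted p by edgeR. These ran from 0.000326 (row 2440) to 0.0314 (row 10212).

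Named rows were the 2 highest and 2 lowest log2 fold changes among called rows with a mean of at least 10 CPM and no overlap between the 6 GFP-positive libraries, for the stage change and for its difference from GFP-negative cells, plus the row with the largest share. The members, lists and rules were chosen with earlier results of these data known. The lists of named marker genes that had been planned could not be applied to rows without names. Replicate numbers pair GFP-positive with GFP-negative libraries within a stage: deviations from group means correlated at 0.18 to 0.24 in L3 and 0.16 to 0.28 in embryo. Across stages equal numbers did not pair, with correlations from -0.018 to 0.036 between L3 and embryo GFP-positive libraries.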

Additional observations from a re-analysis of the deposited data

Results flagged for a closer look

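The stage change from embryo to L3 differed between GFP-positive and GFP-negative cells by the interaction test in edgeR, with 1857 rows positive and 1629 negative (adjusted p under 0.05). Among them are 4 of the rows named in the report. Row 4854 had a difference of 8.87 and row 14766 one of 8.57 on the log2 scale, the second fitted on embryo GFP-positive libraries with 0 counts and 5.80 with limma voom, so L3 exceeded embryo by more in the GFP-positive fraction. Row 6686 had a difference of -12.60 and row 5778 one of -11.03, and for both the stage change had opposite signs in the 2 fractions. The groups have 2 or 3 libraries, too few to test any single library as an outlier.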

How the results depend on the processing

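Counts and named rows were recomputed under other scalings, filters, tools, fits and with each library left out. Without each of the 6 libraries in turn the higher rows of L3 against embryo GFP-positive cells ran from 4781 to 5460 and the lower rows from 3713 to 4653. With a minimum fold of 2 (glmTreat) 3999 rows were higher and 2705 lower. Without the HiSeq X-ten libraries 5936 were higher and 4214 lower. With only the 6 libraries in the fit 7572 rows were called, 9878 with limma voom and 10667 with DESeq2. With replicate number as a block 10120 were called, and that block changed no call of a named row and moved no other count by over 1.5 times.

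The positive differences between GFP-positive and GFP-negative cells numbered 2831 with library totals, 1017 with only the compared groups, 1161 with the stage-by-replicate block, 1187 with limma voom and 2876 with DESeq2. Positive and negative differences were 767 and 697 with glmTreat and 720 and 908 at an adjusted p under 0.01. With each library left out they ran from 1263 to 2486 and from 1276 to 1633.

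For rows higher in the L1 sort, the median stage change was 0.11 with RLE scaling, 0.30 with library totals and 0.23 for rows at least 4-fold higher, of which 594 were lower in L3. Leaving out each library, the median ran from -0.15 to 0.35 and the lower rows from 549 to 988. For rows at least 4-fold lower in the L1 sort the median was 2.69, with 195 lower. Leaving out each library, the median of all rows lower in the L1 sort ran from 1.61 (without L1 GFP-positive replicate 3) to 2.73, their higher calls from 793 to 1659 and their lower calls from 193 to 415. The difference in the share of counts of rows higher in the L1 sort, L3 minus embryo, ran from -1.51 to 0.305 percentage points, and turned to 0.305 without embryo GFP-positive replicate 3 (exact permutation p = 0.5). The rows higher in L3 whole animals ran from 2797 to 4648 and those shared with GFP-positive cells from 1980 to 3304, lowest without embryo whole replicate 3. The causes were not tested. The depth of the L3 libraries limits what can be said of rows under 0.273 CPM.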

Other observations

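Replicates of a group were not equally often the highest among the called rows. Among the 3353 lower rows with a mean of at least 10 CPM, the highest of the L3 libraries was replicate 3 in 51.4%, and the highest of the embryo libraries was replicate 3 in 52.1%. Among the 2292 higher rows of that level, the highest L3 library was replicate 3 in 39.5%, and the highest embryo library was replicate 2 in 48.3%. The same shares were not computed over all rows of that level, so whether they are particular to called rows was not tested. The median SD of log2 CPM between replicates, over the 8365 rows of that level, was 0.35 in L3 and 0.37 in embryo.

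Among intestine-depleted rows of the L1 sort that were higher in L3 GFP-positive cells, the median log2 fold change was 3.78 in GFP-positive cells, 2.41 in GFP-negative cells and 2.25 in whole animals. Among intestine-enriched rows that were higher in L3 GFP-positive cells, it was 2.74 in GFP-positive cells, 1.97 in GFP-negative cells and 3.54 in whole animals. Both sets of rows were chosen by their change in GFP-positive cells.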
